A study of Mus musculus with 2 samples.

Results

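The genes described here encode the machinery that releases synaptic vesicles: 58 genes named by symbol in 15 families and 2 single genes, out of 21829 protein-coding genes of the mouse annotation used. They were listed by symbol from their known function, with earlier results of these data already known. Chromatin accessibility was mapped by DNase-seq, which sequences the ends made by the nuclease DNase I in isolated nuclei, so that open regulatory DNA appears as peaks rich in cuts. The tissue was cerebellum taken at 36 days of age from 2 B6CASTF1/J males, whose parents were of the strains C57BL/6J and CAST, and each animal gave 1 library. All libraries belong to 1 group with no treatment or mutation, so no groups were compared and no test across animals was possible. In the labels the animals are numbered biological replicates 1 and 2, yet a single donor entry is listed for both, and their spread may be largely technical. Whole tissue was used, in which fewer accessible cells and less accessibility per cell cannot be told apart.

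At a synapse, vesicles loaded with transmitter are tethered and primed at the active zone, and calcium entry then triggers their fusion with the plasma membrane. Fusion is driven by SNARE proteins, in which a VAMP on the vesicle zips together with a syntaxin and a SNAP protein on the target membrane. Complexins and syntaxin-binding proteins regulate that complex, many synaptotagmins and the Doc2 proteins sense calcium, and NSF with its SNAP adaptors takes the used complex apart. Unc13, RIM, CAPS, Bassoon and Piccolo proteins organise docking and priming, while synapsins, SV2 proteins and Rab3 sit on the vesicle. In 6 of the 15 families there are isoforms used for membrane traffic or secretion outside neurons. They stand beside isoforms used for release in neurons in all of these families except the syntaxin-binding proteins. The cerebellum is dominated by granule cells, small neurons whose axons form the parallel fibre synapses.

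Replicate 1 had 140127 peaks and replicate 2 had 114404, with 342409 and 262603 footprints, which are short stretches protected from cutting inside open DNA. Wherever values come in pairs, replicate 1 is given before replicate 2. A peak's height is the authors' own value on a scale of each library, so heights were compared only within an animal. A promoter was the 1 kb on both sides of every protein-coding transcript start, and it was called open when a peak overlapped it. The percentile of a promoter is the rank of its highest peak among the highest promoter peaks of all open protein-coding genes in that animal. A distal peak had its midpoint in the gene body or the 10 kb on either side and outside every protein-coding promoter. As a check of the tissue, promoters were open in both animals at all 7 granule cell markers, 3 of 5 Purkinje cell markers and 3 of 4 markers of astrocytes and Bergmann glia, but at 0 of 4 microglial and 0 of 3 liver markers. Endothelial markers were open at 3 of 3 promoters in replicate 1 and at 0 of 3 in replicate 2, and oligodendrocyte markers at 3 and 2 of 4. Markers of forebrain neurons were open at 2 and 1 of 5, with Tbr1 open in both animals.

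Nearly every release gene had an open promoter, but those promoters were of middling height. A promoter peak was present at 58 of 58 members in replicate 1 and 56 of 58 in replicate 2, against 67.0% and 63.5% of all protein-coding genes. In both animals together the count was 56 members, or 96.6%, against 62.9% of all genes. The median height of open members was 7.53 and 5.19, below the median of 9.10 and 6.65 over all open genes. The median percentile of members was 43.9 and 41.3, a mean of 42.6 ± 1.82 (SD, n = 2). The percentile was below 50 at 34 members in replicate 1 and 35 in replicate 2, and above 90 at 3 members in both animals, which were Snap29, Vamp3 and Napa.

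The CpG content of the promoter moved with height, and members ranked differently within it. All genes were split into 5 equal classes by the ratio of observed to expected CpG. No member lay in the lowest class, where promoters were open at only 7.49% and 5.63% of genes. In class 2 the promoter was open at 13 and 12 of 13 members, against 44.9% and 38.9% of all genes of the class. In classes 3 to 5 it was open at every member except 1 of class 3 in replicate 2, and at 89.8% to 97.4% and 85.5% to 95.1% of all genes. Members thus exceeded their class most in class 2, and in the higher classes most genes of any kind were open. In class 2, the 13 members had median heights of 5.30 and 3.49, against 2.21 and 2.19 over all open genes of the class. In class 5, the 14 members had median heights of 8.40 and 5.19, against 13.1 and 8.86 over all open genes. Members thus stood above their class at low CpG content and below it at the highest. The medians in class 3 were 7.48 and 6.04 for members and 8.01 and 5.88 for all open genes, and in class 4 they were 9.57 and 6.21 for members and 10.8 and 7.51 for all open genes. Ranked within its own CpG class, the median member stood at percentile 51.5 and 50.2.

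**Figure D1:**
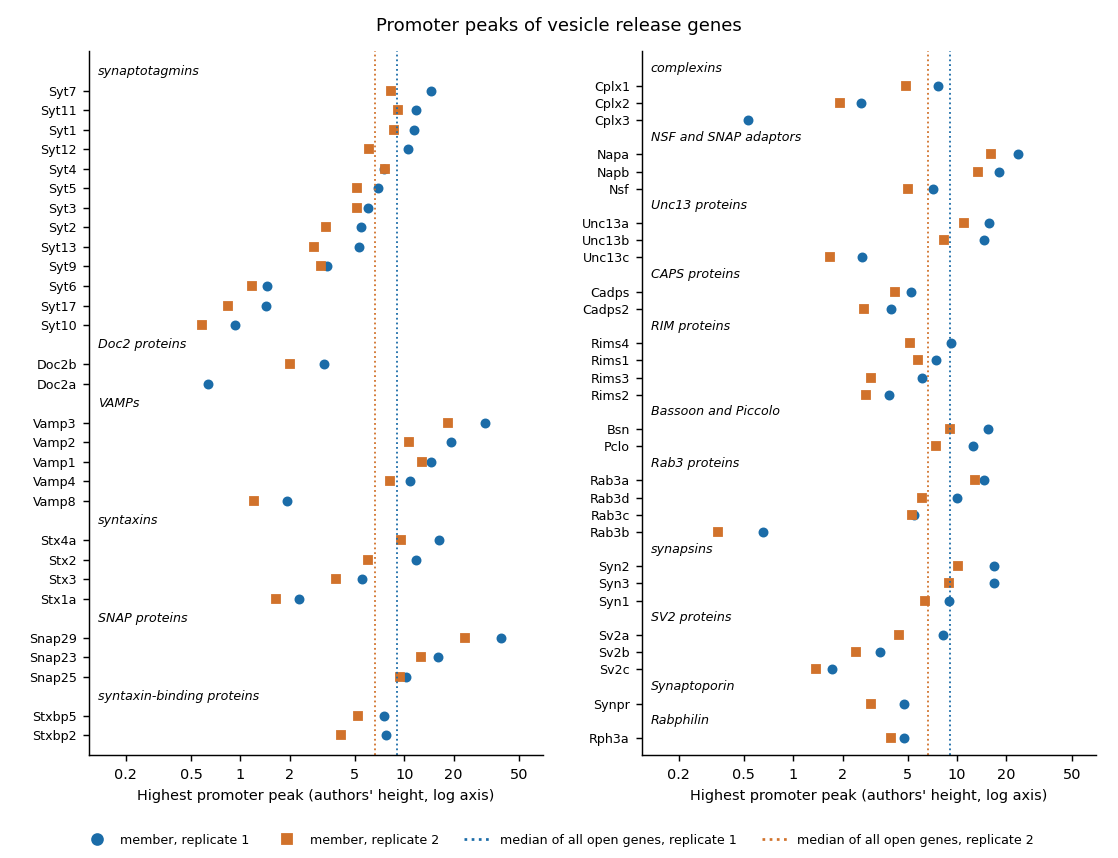
Height of the highest promoter peak of each member (horizontal log axis, the authors' height) by family, with replicate 1 as circles and replicate 2 as squares; dotted lines mark the medians of all open protein-coding genes, 9.10 and 6.65. Snap29 and Vamp3 lie farthest right, while Cplx3 and Doc2a have a circle only because replicate 2 had no peak.

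The order of paralogues within a family was mostly the same in both animals. Of 15 families with at least 2 members, 11 had the same member with the highest promoter percentile in both animals, 14 had the same lowest member, and 10 had the same full order. The top member differed in the synaptotagmins, with Syt7 in replicate 1 and Syt11 in replicate 2, and in the syntaxin-binding proteins, with Stxbp2 and Stxbp5. It also differed in the RIM proteins, with Rims4 and Rims1, and in the synapsins, with Syn3 and Syn2. The 5 members whose percentile moved most between animals were Stx2 (by 13.5 points), Syn3 (12.9), Vamp1 (12.5), Snap25 (12.1) and Rab3a (12). Paralogues whose percentiles differ by less than 13.5 points are within the largest spread seen between animals.

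Among the SNARE proteins the isoforms used throughout the body, not the synaptic ones, held the top of each family. Snap29, which serves fusion inside the cell and in autophagy, had the highest promoter peak of all members, with heights of 39.2 and 23.5 at percentiles 99.4 and 99.4. The same peak falls within 1 kb of a start of Pi4ka, a lipid kinase gene, and cannot be assigned to either gene. No other member shared its highest peak with another protein-coding gene. Snap23, the widely used plasma membrane SNAP protein, had heights of 16.0 and 12.7, and Snap25, its counterpart at synapses, had 10.2 and 9.46. The Snap25 percentiles of 54.1 and 66.2 were thus near the middle of all open promoters.

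Vamp3, which serves recycling of membrane in most cells, had heights of 31.1 and 18.4 at percentiles 97.5 and 96.0, the highest of the VAMPs. The synaptic isoforms came next, Vamp2 with 19.4 and 10.7 and Vamp1 with 14.5 and 12.8, and their order changed between animals. Vamp4, a protein of the Golgi and endosomes, had 10.9 and 8.21. Vamp8, used for late endosomes and for secretion from non-neuronal cells, was lowest with 1.93 and 1.22. Among the syntaxins, Stx4a, a plasma membrane isoform of many cell types, was highest with 16.4 and 9.61. Stx2 and Stx3 followed with 11.8 and 6.00 and with 5.55 and 3.82. Stx1a, the syntaxin of synaptic terminals, was lowest with 2.27 and 1.65 at percentiles 22.8 and 19.3. The 12 SNARE genes had a median percentile of 64.6 and 66.6, against 43.9 and 41.3 for all 58 members.

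The promoters of paralogues at the top and lower in these families are printed here, each as the highest promoter peak of replicate 1 on mm10, read on the gene's strand from 5′ to 3′. Capitals mark bases inside footprints of both animals.
Snap29 promoter (chr16:17405821-17406020, + strand): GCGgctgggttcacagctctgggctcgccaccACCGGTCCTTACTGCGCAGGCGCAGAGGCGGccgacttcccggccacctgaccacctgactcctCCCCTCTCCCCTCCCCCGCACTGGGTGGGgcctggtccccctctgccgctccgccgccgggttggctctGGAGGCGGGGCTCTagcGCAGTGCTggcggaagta
Vamp3 promoter (chr4:151057921-151058220, - strand): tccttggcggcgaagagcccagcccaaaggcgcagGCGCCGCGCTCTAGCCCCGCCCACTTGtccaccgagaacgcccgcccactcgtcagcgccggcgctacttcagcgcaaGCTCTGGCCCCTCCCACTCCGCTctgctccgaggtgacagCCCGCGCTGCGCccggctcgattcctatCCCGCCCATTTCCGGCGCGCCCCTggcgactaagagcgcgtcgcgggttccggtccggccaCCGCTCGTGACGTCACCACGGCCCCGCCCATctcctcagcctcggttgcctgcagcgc
Vamp2 promoter (chr11:69088401-69088600, + strand): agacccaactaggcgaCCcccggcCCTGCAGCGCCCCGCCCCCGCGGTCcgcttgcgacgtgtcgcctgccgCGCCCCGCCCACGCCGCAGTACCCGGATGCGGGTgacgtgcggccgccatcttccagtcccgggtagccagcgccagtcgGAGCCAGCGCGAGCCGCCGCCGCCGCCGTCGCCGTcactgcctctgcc
Stx1a promoter (chr5:135023401-135023620, + strand): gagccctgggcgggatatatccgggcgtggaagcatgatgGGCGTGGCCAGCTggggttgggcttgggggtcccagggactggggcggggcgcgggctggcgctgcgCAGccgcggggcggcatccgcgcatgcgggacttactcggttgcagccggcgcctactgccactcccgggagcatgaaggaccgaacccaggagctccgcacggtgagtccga
Footprints of both animals covered 85 of 200 bases at Snap29, 117 of 300 at Vamp3 and 96 of 200 at Vamp2, against 16 of 220 at Stx1a. These stretches of unequal length held 16 CpG dinucleotides at Snap29, 40 at Vamp3, 32 at Vamp2 and 23 at Stx1a. The CpG count thus did not follow height among these promoters.

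**Figure D2:**
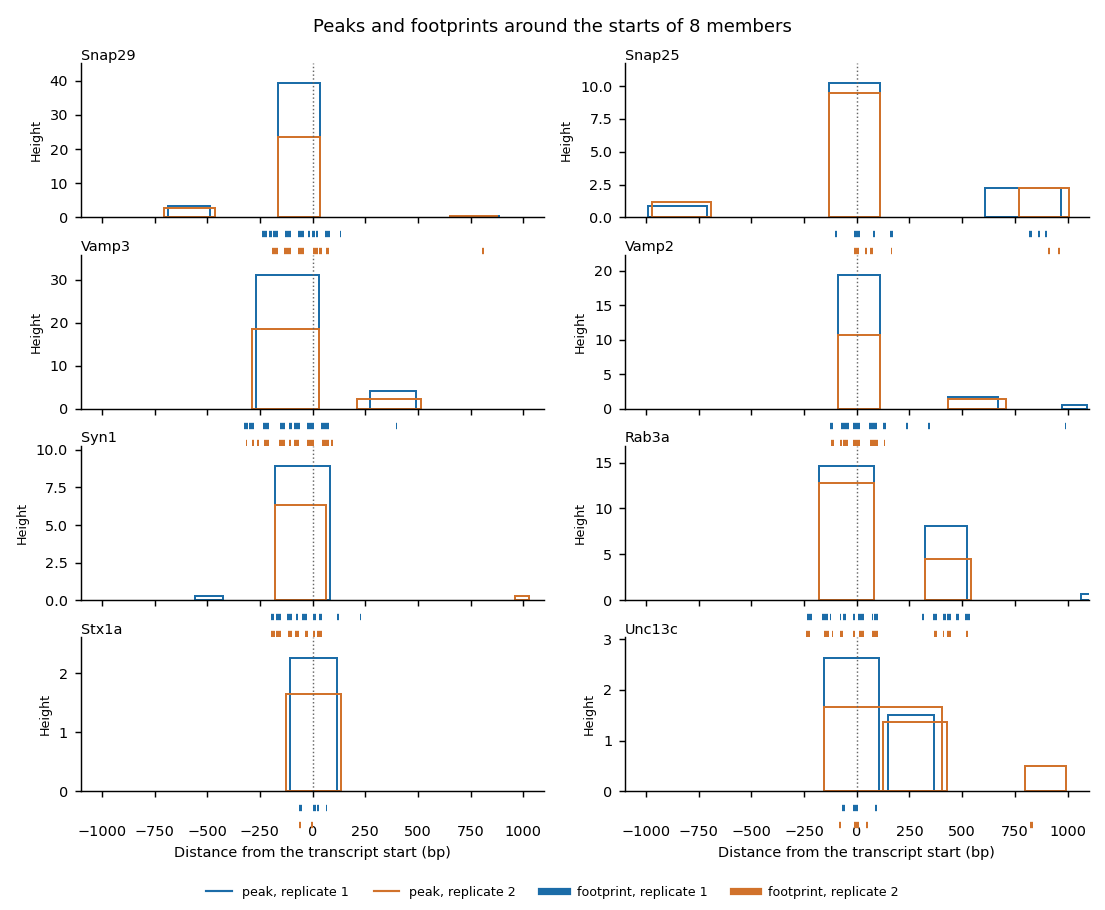
Peaks (outlines, vertical axis in the authors' height) and footprints (bars under each axis) from 1000 bp upstream to 1000 bp downstream of the start of 8 members, by distance from the transcript start in bp, with replicate 1 in blue and replicate 2 in orange. The main peak covers the start in all 8 genes in both animals, Snap29 reaches 39.2 and 23.5, and Stx1a stays at 2.27 and 1.65.

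Stx1a, Cplx2 and Unc13c each had a low promoter peak and a taller distal one. At Stx1a, a peak of 11.7 and 9.72 lay 1472 bp upstream of the start, against 2.27 and 1.65 at the start itself. At Cplx2, encoding a complexin of central synapses, a peak of 15.4 and 7.51 lay 1591 and 1581 bp into the gene, against 2.59 and 1.93 in the promoter. When the promoter window was widened to 2 kb, both of these peaks fell inside it, and the percentile was 60.0 and 68.0 at Stx1a and 72.5 and 55.7 at Cplx2. At Unc13c, which encodes the Munc13 isoform known from cerebellar granule cells, a peak of 13.2 and 11.7 lay deep in the gene body, against 2.64 and 1.67 in the promoter. The nearest start to it, 6137 and 6087 bp away, is an inner one without a peak in either animal, 35399 bp from the open outermost start. Rims3, which encodes a short RIM protein, had a peak of 19.2 and 12.9 at 3659 bp upstream, against 6.14 and 2.97 in the promoter. Syt7, which encodes a calcium sensor for slow and asynchronous release, had a peak of 20 and 12.3 in the gene body 28137 bp from the start, against 14.6 and 8.27 in the promoter. All 5 distal peaks were found in both animals at overlapping positions.
These distal elements are shown as replicate 1 peaks, on the gene's strand, with capitals for bases in footprints of both animals.
Stx1a distal (chr5:135021921-135022100, + strand): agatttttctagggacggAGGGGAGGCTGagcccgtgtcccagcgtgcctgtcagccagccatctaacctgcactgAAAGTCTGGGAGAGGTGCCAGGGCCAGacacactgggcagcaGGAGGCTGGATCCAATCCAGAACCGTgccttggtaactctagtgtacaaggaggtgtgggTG
Cplx2 distal (chr13:54372861-54373020, + strand): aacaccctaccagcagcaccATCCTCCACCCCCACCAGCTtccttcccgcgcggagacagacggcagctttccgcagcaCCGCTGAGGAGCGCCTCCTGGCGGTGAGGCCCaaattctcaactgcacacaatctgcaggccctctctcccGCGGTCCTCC
Unc13c distal (chr9:73927341-73927520, - strand): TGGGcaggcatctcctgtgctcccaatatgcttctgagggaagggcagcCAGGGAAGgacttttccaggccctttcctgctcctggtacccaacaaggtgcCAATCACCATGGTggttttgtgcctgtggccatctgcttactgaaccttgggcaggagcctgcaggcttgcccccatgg
Rims3 distal (chr4:120851061-120851260, + strand): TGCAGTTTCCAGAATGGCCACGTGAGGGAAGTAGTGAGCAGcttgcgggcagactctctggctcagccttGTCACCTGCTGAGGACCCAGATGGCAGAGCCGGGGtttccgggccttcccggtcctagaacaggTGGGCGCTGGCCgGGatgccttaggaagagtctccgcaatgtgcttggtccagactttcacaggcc
Syt7 distal (chr19:10417521-10417720, + strand): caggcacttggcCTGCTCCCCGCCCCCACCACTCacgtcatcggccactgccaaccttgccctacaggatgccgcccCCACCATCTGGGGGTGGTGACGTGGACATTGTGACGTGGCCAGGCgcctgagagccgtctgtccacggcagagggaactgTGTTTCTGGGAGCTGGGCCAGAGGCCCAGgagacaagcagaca
They held between 0 CpG dinucleotides at Unc13c and 10 at Cplx2, against 23 in the Stx1a promoter stretch.

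A distal peak higher than the promoter peak was found at 22 of 58 open members in replicate 1 and 25 of 56 in replicate 2, against 24.3% and 22.4% of all open protein-coding genes. In both animals this held for 20 members, or 35.7% of the 56 open in both, against 19% of all genes open in both. They were Syt2, Syt3, Syt6, Syt7, Syt9, Syt13, Stx1a, Stx4a, Snap25, Sv2b, Sv2c, Rab3b, Cplx2, Unc13c, Rims2, Rims3, Bsn, Cadps, Doc2b and Rph3a. The share depends on how much DNA is searched, and members are long. Among the 28 members in the longest of 5 classes of territory, the count was 13 and 18, against 34.4% and 35.6% of open genes in that class. The class runs from 78.1 to 4455 kb with a median of 130 kb. Most of its members are longer than that median, so length was not matched inside it. At Snap25 (10.4 and 10.2 distal, 10.2 and 9.46 promoter) and Bsn (15.9 and 10.9 distal, 15.4 and 9.06 promoter) the values were close. The tallest distal peak of Stx4a, 20.8 and 13.3, lay in the body of a neighbouring gene.

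**Figure D3:**
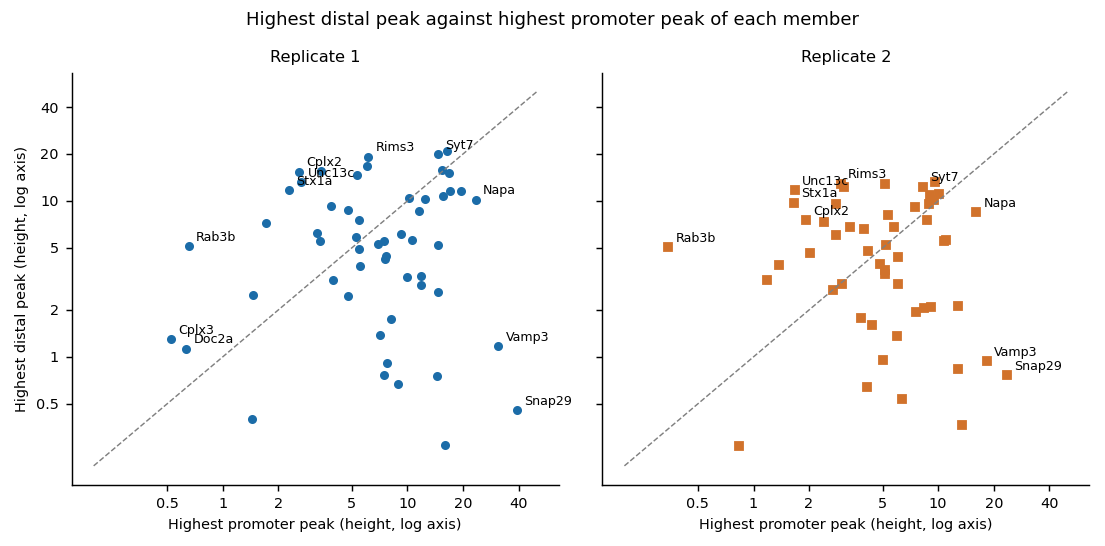
Highest distal peak (vertical log axis) against highest promoter peak (horizontal log axis) of each member with both, in the authors' height, with replicate 1 on the left and replicate 2 on the right; the dashed line marks equal heights. Stx1a, Cplx2, Unc13c, Rims3 and Rab3b lie above the line in both animals, and Snap29 and Vamp3 far below it.

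Regulators and disassembly factors of the SNARE complex spanned nearly the whole range. Napa, which encodes the widely used SNAP adaptor of NSF, had heights of 23.5 and 16.1 at percentiles 90.3 and 91.7. Napb, its brain counterpart, had 17.9 and 13.4, and Nsf, the ATPase that separates SNARE proteins, had 7.11 and 5.00. Napb had 0 and 1 distal peaks, whereas Napa had 14 and 5 in a shorter territory. The complexins, small proteins that clamp and promote fusion, ran from Cplx1 with 7.65 and 4.85 through Cplx2 with 2.59 and 1.93 to Cplx3. Cplx3, known from ribbon synapses of the retina, had a peak of 0.526 in replicate 1 and none in replicate 2. Stxbp2, which encodes a Munc18 protein of non-neuronal secretion, had 7.75 and 4.12, and Stxbp5, which encodes tomosyn, an inhibitor of SNARE assembly, had 7.57 and 5.20. The highest Stxbp5 peak was not the same element in both animals, and in replicate 2 it lay at the edge of the window with its midpoint 1021 bp upstream.

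Calcium sensors had the lowest median percentile of the roles, 35.8 and 35.3 over 15 and 14 open genes. All 13 synaptotagmins were counted in that role by family, whether or not each binds calcium, Syt11 included. The SNARE regulators were close in replicate 2, at 36.8. Ranked within CpG class the calcium sensors stood at 45.1 and 42.7, and the SNARE regulators were then lowest with 29.0 and 29.9 over 5 and 4 open genes. Syt7, Syt11 and Syt1 led the synaptotagmins. Syt1, the main sensor of fast release in forebrain neurons, had heights of 11.5 and 8.68, and Syt2, the fast sensor of many hindbrain neurons, had 5.44 and 3.34. Syt11, which does not bind calcium, had 11.8 and 9.20, and Syt7 had 14.6 and 8.27. Syt12 (10.6 and 6.06), Syt4 (7.48 and 7.60), Syt5 (6.96 and 5.15), Syt3 (6.03 and 5.18), Syt13 (5.30 and 2.81) and Syt9 (3.39 and 3.10) had intermediate heights. Syt6 (1.45 and 1.18), Syt17 (1.44 and 0.839) and Syt10 (0.932 and 0.583) were the lowest in both animals. Syt10 had no distal peak in either animal although its promoter lay in the highest CpG class.

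The Doc2 genes encode sensors with high calcium affinity. Doc2b had heights of 3.25 and 2.02 in the promoter. Doc2a, the isoform known from excitatory brain synapses, had a peak of 0.634 in replicate 1 and none in replicate 2. Doc2a and Cplx3 were the only members without a promoter peak in an animal. The lowest false discovery rate within their windows was 0.029 at Doc2a and 0.016 at Cplx3 in replicate 1, and no stretch was listed at or below 0.05 in replicate 2. Neither peak was in the smaller, stricter list of replicate 1. Both are shown because they are the weakest promoters of the set, and they hold no base in footprints of both animals.
Cplx3 promoter (chr9:57606219-57606341, - strand): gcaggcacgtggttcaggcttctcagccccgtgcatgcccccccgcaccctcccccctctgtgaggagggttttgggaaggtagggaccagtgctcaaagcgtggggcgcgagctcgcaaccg
Doc2a promoter (chr7:126847932-126848000, + strand): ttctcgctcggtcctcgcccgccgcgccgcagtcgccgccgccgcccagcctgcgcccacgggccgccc
Distal peaks were present at Doc2a (1 and 1) and Cplx3 (4 and 3), and 1 distal peak of Doc2a and 2 of Cplx3 in each animal lay in the body of a neighbouring gene.

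Vesicle proteins showed wide spacing between paralogues of Rab3 and SV2. Rab3a, the main Rab GTPase of synaptic vesicles, had heights of 14.6 and 12.8 at percentiles 69.6 and 81.6. Rab3d, known from exocrine secretion, had 9.95 and 6.08, and Rab3c had 5.45 and 5.32. Rab3b had 0.656 and 0.346 at percentiles 9.86 and 3.14, and its replicate 2 peak was the only highest promoter peak of a member with no footprint. The SV2 glycoproteins of vesicle membranes ran from Sv2a with 8.16 and 4.39 through Sv2b with 3.37 and 2.42 to Sv2c with 1.72 and 1.37. Synpr, which encodes the vesicle protein synaptoporin, had 4.74 and 3.0, and Rph3a, which encodes the Rab3 effector rabphilin, had 4.74 and 3.97.

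Synapsins anchor vesicles in the reserve pool. Syn2 had heights of 16.8 and 10.1, Syn3 had 16.9 and 8.96, and Syn1 was lowest with 8.92 and 6.36. Syn1 is the only member on the X chromosome, of which a male cell has a single copy. Among open X-linked promoters, 505 and 465 in number with median heights of 3.80 and 3.08, Syn1 stood at percentile 84.5 and 85.3, against 49.3 and 48.3 among all open promoters. It also had few distal peaks, 4 and 5, against 19 and 16 at Syn2 and 44 and 34 at Syn3. The Syn1 and Rab3a promoters are shown with footprint bases of both animals in capitals.
Syn1 promoter (chrX:20920921-20921180, - strand): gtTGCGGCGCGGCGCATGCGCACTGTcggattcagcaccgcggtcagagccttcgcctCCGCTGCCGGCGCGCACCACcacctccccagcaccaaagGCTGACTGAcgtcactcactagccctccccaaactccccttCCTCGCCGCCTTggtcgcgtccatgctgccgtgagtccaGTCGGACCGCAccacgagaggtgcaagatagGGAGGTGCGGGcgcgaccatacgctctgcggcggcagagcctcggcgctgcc
Rab3a promoter (chr8:70754501-70754760, + strand): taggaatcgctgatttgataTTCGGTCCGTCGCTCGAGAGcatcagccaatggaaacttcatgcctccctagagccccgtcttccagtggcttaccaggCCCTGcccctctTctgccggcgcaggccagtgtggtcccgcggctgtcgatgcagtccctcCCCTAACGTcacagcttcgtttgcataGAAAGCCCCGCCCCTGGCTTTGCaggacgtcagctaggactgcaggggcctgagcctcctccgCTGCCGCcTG
Footprints of both animals covered 87 of 260 bases at Syn1 and 67 of 260 at Rab3a.

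Active zone and priming genes were the longest and held the most distal peaks. Their 11 territories had a median length of 369 kb, against 65.8 kb over all members, and a median of 30 and 26 distal peaks. Per 100 kb they had a median of 6.67 and 6.20, below the 8.17 and 7.20 over all members. Unc13a, which encodes the main priming factor of excitatory synapses, had promoter heights of 15.6 and 11.0. Unc13b had 14.6 and 8.36, and Unc13c was lowest. Unc13b and Unc13c were opposite in their distal peaks, with 4 and 4 at Unc13b and 31 and 29 at Unc13c. Bsn and Pclo, the giant scaffold genes, had promoter heights of 15.4 and 9.06 and of 12.5 and 7.47. Cadps, a priming factor of dense-core vesicles, had 5.26 and 4.19, and Cadps2, known from granule cell secretion of neurotrophins, had 3.95 and 2.71. Rims4 had 9.22 and 5.18 and Rims1, the large RIM scaffold, had 7.46 and 5.73, followed by Rims3 and by Rims2 with 3.85 and 2.79.

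Several members have more than 1 annotated start region, counted as separate when starts lay more than 2 kb apart so that their windows did not overlap. There were 36 members with 1 region and 22 with more (37.9%, against 29.4% of all genes), and those 22 had 54 regions. A peak was found at 31 regions in replicate 1 and 30 in replicate 2. In neither animal was there one at 23 regions, or 42.6%, against 55.7% of the regions of all genes with several. The outermost region held the highest peak in both animals at 20 of the 22 members (90.9%), against 76.5% of all genes with several regions and a promoter peak in both animals. The exceptions were Syt11 and Rims2. At Syt11 the second region, 2565 bp inside the outermost start, held 11.8 and 9.20, and the outermost held 0.596 and 0.691.

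Rims2 is known to make full-length and shorter RIM proteins from separate promoters. Its outermost region had heights of 3.72 and 2.46. The region 193539 bp inside had 1.32 and 1.79, the region 238736 bp inside had none, and the last region, 461305 bp inside, had 3.85 and 2.79. Both ends of the gene were thus open to a like height. More than 1 region was open in both animals at 6 members, or 27.3% of the 22, against 20.2% of all genes with several. There were 3 regions each at Rims2 and Syt11, and 2 each at Rims3, Syt2, Unc13b and Vamp1. At Syt2 the regions had 5.44 and 3.34 at the outermost start and 4.51 and 2.83 at 62623 bp inside. The inner regions of Rims1, Unc13a, Unc13c, Cadps, Cadps2 and Pclo had no peak in either animal, and the inner region of Bsn had a peak of 1.13 in replicate 1 only.

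**Figure D4:**
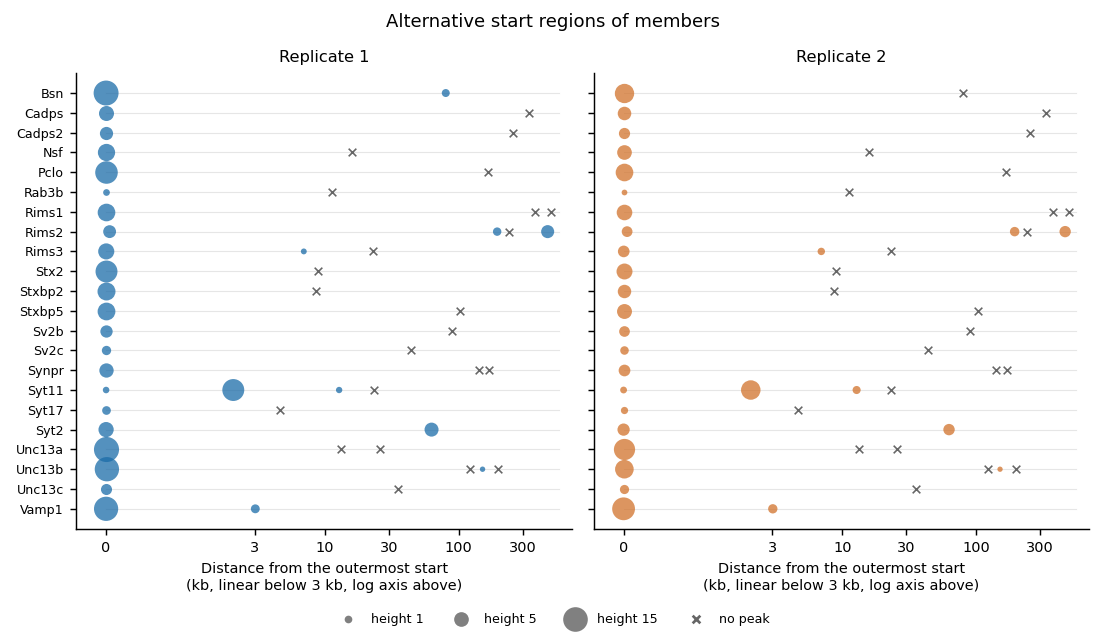
Start regions of the 22 members with more than 1, by distance from the outermost start in kb (linear below 3 kb, log above), replicate 1 on the left and replicate 2 on the right; circle area grows with the height of the highest peak and crosses mark regions without a peak. Most circles lie at 0, and Rims2 has a circle of 3.85 and 2.79 at its far end.

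Release genes held more distal peaks than protein-coding genes at large, also per length. At least 1 distal peak was found at 54 and 54 of 58 members, against 73.1% and 68.2% of all protein-coding genes. The median member had 10 and 5.5 distal peaks, against 2 and 1 over all genes, with median territories of 65.8 kb and 37.4 kb. Per 100 kb, members had a median of 8.17 and 7.20 (mean 7.68 ± 0.682, SD, n = 2), against 4.05 and 3.34 over all genes (mean 3.70 ± 0.496, SD, n = 2). A list of 24 other presynaptic genes, described below, had 7.53 and 5.83 per 100 kb. A density above that of all genes was therefore not particular to the release genes. Within 5 equal classes of territory length, the median member stood at percentile 79.2 and 79.6 of the distal count. In the longest class, above 78.1 kb, the 28 members had a median of 18 and 14, against 7 and 6 over all genes of the class. Most of these members are longer than its median territory of 130 kb, so length was not matched inside it. In the next class, 13 members had 4 and 4, against 2 and 2 over all genes. In class 3, 8 members had 5 and 2.5, against 2 and 1. In class 2, 7 members had 2 and 1, against 1 and 1, so their median in replicate 2 was that of all genes. The shortest class held 2 members, with a median of 11 and 8, against 1 and 0.

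The most distal peaks were found at Syt1 (48 and 40), Syn3 (44 and 34), Rims1 (36 and 36), Cadps2 (30 and 37) and Unc13c (31 and 29). Relative to length, the densest was Rab3a with 70.8 and 50 per 100 kb, from 17 and 12 peaks in 24.0 kb. Of these Rab3a peaks, 10 and 6 lay downstream of the gene. By the mean of both animals, Rims3 (50.2 and 14.6 per 100 kb), Cplx2 (43.0 and 9.21), Bsn (27.1 and 22.7) and Napa (35.4 and 12.7) followed. Of these only Bsn was among the 5 densest in replicate 2, where Syt4 (20.3), Syt12 (17.5), Vamp2 (16.7) and Syt7 (16.6) stood above Rims3, Napa and Cplx2. The animals thus differed at 3 of these. Rims3 had 31 distal peaks in replicate 1 and 9 in replicate 2, Cplx2 had 14 and 3, and Napa had 14 and 5. The distal peaks of replicate 2 at Rims3 and Cplx2 were all shared with replicate 1, as were 4 of 5 at Napa. No distal peak was found in either animal at Syt10, Vamp4 and Vamp8, and none in 1 animal at Napb and Snap23.

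In all, members had 733 and 580 distal peaks. Of these, 65.9% and 83.1% overlapped a peak of the other animal, against 63.7% and 80% of distal peaks at all protein-coding genes. A footprint was present in 84.7% and 83.4%, against 81.7% and 76.1% at all genes. Median heights were 0.818 and 1.07 at members and 0.737 and 0.859 at all genes. The gene body held 83.9% and 86.6% of the members' distal peaks, the upstream 10 kb 8.87% and 7.76%, and the downstream 10 kb 7.23% and 5.69%. A position inside the body of another protein-coding gene was found for 6.55% and 5.17%.

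**Figure D5:**
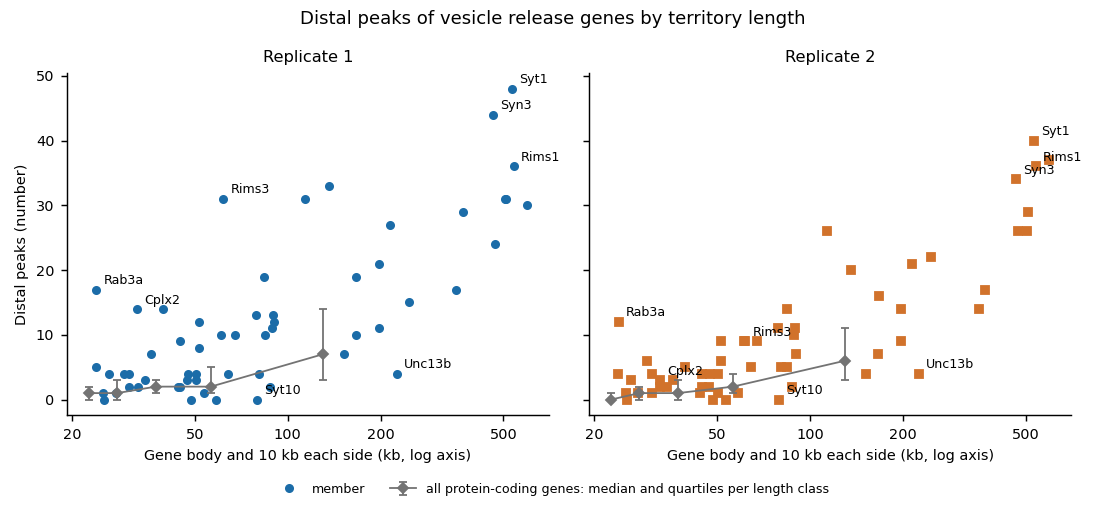
Number of distal peaks (vertical axis) against the length of gene body and flanks in kb (horizontal log axis), replicate 1 on the left and replicate 2 on the right, for members (points) and for all protein-coding genes as median and quartiles in 5 length classes (grey). Syt1 stands highest with 48 and 40, Rab3a lies far above the grey line at 24.0 kb, and Rims3 has 31 and 9.

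Isoforms used in neurons ranked lower in promoter height than isoforms used widely, and held more distal peaks. The 34 isoforms used for release in neurons had a median promoter percentile of 40.9 and 40.1 over 34 and 32 open genes. The 12 isoforms widely used outside neurons (Vamp3, Vamp4, Vamp8, Stx2, Stx3, Stx4a, Snap23, Snap29, Stxbp2, Nsf, Napa and Rab3d) had 58.3 and 52.9. Within CpG class the gap was smaller, with 50.8 and 51.0 for the neuronal isoforms and 63.2 and 57.5 for the widely used ones. The order was turned round for distal peaks, with medians of 13.5 and 10.5 for the neuronal isoforms and 2 and 2 for the widely used ones, in median territories of 89.3 kb and 44.4 kb. Per 100 kb these were 8.86 and 7.42 for the neuronal isoforms and 5.36 and 3.86 for the widely used ones. The synaptotagmins other than Syt1 and Syt2, with Stxbp5, were the 12 members outside both groups and had 11.9 and 7.84 per 100 kb. Promoter percentiles ran from 7.51 to 82.6 and from 3.14 to 84.0 in the neuronal group, and from 21.1 to 99.4 and from 15.5 to 99.4 in the widely used group, so the groups overlapped. A list of other presynaptic genes, such as synucleins, synaptogyrins, liprins and endocytic factors, had open promoters at 23 and 22 of 24 genes. Their median percentile was 57.2 and 51.4. They had a median of 7.5 and 6 distal peaks, or 7.53 and 5.83 per 100 kb, against 8.17 and 7.20 per 100 kb for all members.

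Promoter footprints were nearly universal. The highest promoter peak held a footprint at 58 of 58 and 55 of 56 open members, against 97.1% and 95.0% of all open genes, so members stood close to the background. Footprint calls depend on height: in the lowest of 5 height classes a footprint was present at 85.6% and 75.3% of open genes, and in the classes above at 99.8% to 100%. The highest peaks of members overlapped between animals at 54 of 56 genes (96.4%, against 95.2% of all genes open in both), the exceptions being Syt3 and Stxbp5. Those peaks held 277 footprints in each animal, and 199 of replicate 1 overlapped 1 of replicate 2. At least 1 such shared footprint was found at 52 members (92.9%, against 88.2% of all genes open in both). The highest peak covered an annotated start at 47 of 58 members in replicate 1 and 44 of 56 in replicate 2 (81.0% and 78.6%, against 66.9% and 69.6% of all open genes). It lay upstream only at 11 and 9 members and downstream only at 0 and 3, positions that were not counted over all genes.

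Known motifs were searched as exact letters on both strands of the highest promoter peaks. Distances below run from the start to the motif base with the lowest coordinate. The full cAMP response element, TGACGTCA, bound by CREB proteins, was found at 4 members in both animals, or 6.90% and 7.14%, against 3.59% and 3.78% of all open promoters. They included Vamp3 at 11 bp upstream, Syn1 at 66 bp upstream and Napa at 115 bp downstream. All 4 matches touched footprints of both animals, which covered 8 of 8 bases at Vamp3 and Napa and 3 at Syn1. In the sequences above, the Vamp3 match stands in capitals whole, and at Syn1 only its first bases do. The shorter part of the element, TGACG, was found at 25.9% and 28.6% of members, against 29.0% and 30.8% of all open promoters.

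The EGR consensus GCGTGGGCG, of zinc finger factors induced by activity, was found at Vamp2, Unc13a and Syt12 in both animals. These were 5.17% and 5.36% of members, against 1.28% and 1.28% of all open promoters. The matches lay 12, 17 and 576 bp upstream, and footprints of both animals covered 9, 9 and 8 of 9 bases. In the Vamp2 sequence above it reads on the other strand, as CGCCCACGC. The NRF1 core GCGCATGC, whose overlapping matches on both strands count as 1 promoter, was found at 8.62% and 7.14% of members, against 5.61% and 5.79% of all open promoters. At Bsn it occurred at 2 places, 7 and 138 bp upstream, each in the highest peak of 1 animal, with 8 of 8 bases in footprints of both animals. All 8 bases were also covered at Syn1, 156 bp upstream, at Snap23, 2 bp downstream, and at Stxbp5, 151 bp upstream in the highest peak of 1 animal. At Stx1a, 20 bp downstream, 0 of 8 bases were. These are counts of 3 to 5 members, and a match says only that the letters are present. Other motifs searched there included GGGCGG of SP and KLF factors, in 69.0% and 67.9% of members, against 63.0% and 63.4% of all open promoters. AGGGGGC of CTCF was in 17.2% and 23.2%, against 15.5% and 15.5%. TTGGC of NFI was in 43.1% and 46.4%, against 43.6% and 45.9%. The E-box CAGATG was in 8.62% and 8.93%, against 7.59% and 8.17%. The E-box CAGCTG was in 10.3% and 17.9%, against 12.1% and 12.3%.

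REST, a repressor that silences neuronal genes outside neurons, recognises a long site with the parts CAGCACC and GGACAG. The left part, CAGCACC, was found in the highest promoter peak of 10 of 58 and 12 of 56 members (17.2% and 21.4%), against 7.04% and 6.91% of all open promoters. Those found in both animals were Cplx2, Napa, Rab3c, Sv2c, Syn1, Syt4, Unc13a, Vamp1 and Vamp8. The right part, GGACAG, was found in 12.1% and 16.1% of members, against 17.1% and 17.5% of all open promoters. Both parts separated by 2 bases occurred in the highest promoter peak of 0 members, against 0.109% and 0.101% of all open promoters. Of 15 left-part matches, 4 touched footprints in both animals, at Syt3, Stxbp2, Rab3c and Unc13a. Those footprints covered 6 of 7 bases at Syt3 and 1 of 7 at the others.

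Across the whole territories of members, both REST parts separated by 2 bases occurred at 10 sites in 9 genes: Syt2, Syt4, Syt6, Syt7, Syt9, Snap25, Rims3, Nsf and Rph3a. That is 15.5% of members, against 2.30% of all protein-coding territories. Longer territories hold more matches: in the longest class 7 of 28 members had one, against 5.20% of all genes of the class. Length was not matched inside that class, where most members are longer than the median gene. In class 4 it was 1 of 13 members against 2.34%, in class 3 it was 0 of 8 against 1.53%, in class 2 it was 1 of 7 against 1.24%, and in the shortest class 0 of 2 against 1.19%. A peak covered 3 of them in replicate 1 and 2 in replicate 2. Snap25 was the gene with 2 sites, 812 and 862 bp from the nearest start inside the gene, in a peak of 2.27 and 2.24. The lowest false discovery rates there were 7.1e-13 and 4.5e-08 at the first site and 3.7e-12 and 1.6e-08 at the second. The Syt4 site, 224 bp inside the gene, lay outside the called peaks but within stretches of false discovery rate 8.5e-17 and 2.8e-18. At Syt2, Syt7, Syt9, Rims3, Nsf and Rph3a no stretch at or below 0.05 was listed over the site in either animal. The Snap25 tandem is shown with both matches in capitals.
Snap25 REST pair (chr2:136714285-136714359, + strand): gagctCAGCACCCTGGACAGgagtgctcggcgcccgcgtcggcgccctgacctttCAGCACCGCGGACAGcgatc

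In distal peaks, motif shares of members were mostly near the background. The E-box CAGATG, of the type bound by NeuroD and Atoh factors, was present in 23.5% and 27.2% of member distal peaks, against 22.4% and 25.2% at all genes. CAGCTG was present in 16.5% and 16.4%, against 15.8% and 14.7% at all genes. The NFI part TTGGC was present in 43.8% and 49%, against 43.5% and 48.5% at all genes. The REST left part CAGCACC was present in 5.73% and 5.52%, against 7.03% and 6.34% at all genes. The MEF2 motif, CTA and TAG separated by 4 bases, was present in 3.96% and 5.00% of member distal peaks, against 2.18% and 2.73% at all genes, from 29 peaks in each animal. CREs were rare, in 1 and 3 member distal peaks (0.136% and 0.517%), and also at all genes (0.301% and 0.365%).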

How the data were processed

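DNase-seq was read from 2 cerebellum samples, biological replicates 1 and 2 of 1 group. Per the labels and the descriptions deposited with the files, coordinates are on mm10 and peaks and footprints were called on each animal's own alignments. Which aligner and callers made them is not given in the sources used here. The deposited peak value is a signal, the authors' height. The authors' false discovery rates, the share of false calls expected at a threshold, are listed for stretches below 0.05, and every footprint carries the deposited p-value entry 0.01. The larger of 2 peak lists was used (the smaller held 88282 and 78928). Heights were whole multiples of 0.00542 and 0.00988, within 0.00932 and 0.00510 of a step; the depth is unknown and no interval was computed.

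Genes came from GENCODE M21 and sequences from RefSeq's GRCm38.p6. Peaks were assigned by overlap of at least 1 bp (promoters) or by midpoint (distal) with Python 3.11.15, numpy 2.4.6 and pysam 0.24.0, and all 200 genes of a planted test were recovered. An F1 hybrid was aligned to a C57BL/6J assembly, and the share of CAST reads lost was not tested. Members, lists and motifs were chosen with earlier results of these data known. Named genes were the top and lowest of each family, those without a peak, the 5 with most and densest distal peaks, the 5 that moved most, and those with several open starts; every other member is given by its heights. Of 25 other presynaptic genes 24 were annotated, and the other was not analysed here. The sequence of 1 member's promoter is not reported here.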

Additional observations from a re-analysis of the deposited data

How the results depend on the processing

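The 7 summary results were recomputed under 44 alternative values, of which 35 moved by less than the spread between animals (or within 1.5 times, for counts), and 9 moved further. For results judged by that spread, leaving out 1 of 2 animals could not move the mean further. Those values were thus bound to fall among the 35. The number of members with a promoter peak, 57.0 of 58, could have moved further only downward. These are counts, medians and shares without a sign, and the contrasts with all genes and between isoform groups were not recomputed under these settings. The median promoter percentile of members, 42.6 as the mean of both animals, was 44.5 with a 2 kb window and 39.1 with the smaller peak list. The median number of distal peaks, 7.75, was 4.5 with the smaller list, 3.5 with peaks above the median height and 14.2 with 50 kb flanks. Distal peaks per 100 kb, 7.68, were 4.55 with the smaller list, 3.87 with peaks above the median height, 6.97 with 50 kb flanks and 6.57 without peaks inside another gene's body. The cause was not tested beyond the fewer peaks or wider territory that each choice brings. Leaving out 1 animal gave 56.0 to 58.0 members with a promoter peak, a median percentile of 41.3 to 43.9, 5.5 to 10 distal peaks, 7.20 to 8.17 per 100 kb, 98.2% to 100% of promoter peaks with a footprint and 65.9% to 83.1% of distal peaks shared. By mean percentile, the top member of 1 family changed with a 500 bp window (to Stxbp2), with a 2 kb window (to Cplx2) and with the outermost start only (to Stx2), and that of 2 families with either animal alone, leaving 13 of 15. No paired analysis was possible because both animals belong to 1 group. The depth is unknown. For a promoter or distal peak missing in replicate 2, as at Doc2a, Cplx3 and Rims3, too little depth and absence therefore cannot be told apart.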
